A study of Homo sapiens and Mus musculus with 8 samples.

Results

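The 81 protein-coding genes of the cytosolic ribosome were followed in 8 RNA sequencing libraries of human colorectal cancer cells. The group was chosen with earlier results of these data known. Its genes were then taken by symbol: RPL or RPS with a number and an optional A, L or X, together with RPLP0, RPLP1, RPLP2 and RPSA. RPS6K kinases, Y-linked copies and pseudogenes were left out. The deposited table holds 60483 genes, and 79 of the 81 passed the filter on low counts. The filter asked for 1 or more CPM (counts per 1000000 counts) in no fewer than 2 libraries, by library totals before scaling. RPL3L and RPL10L did not pass it. Levels in CPM given below are per 1000000 counts of the scaled library. Of the members, 49 encode large subunit proteins, the stalk proteins included, and 32 encode small subunit proteins.

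The study compared states of GNAS, the gene of the stimulatory G protein alpha subunit that activates adenylyl cyclase, in the colorectal cancer lines KM12 and LS174T. The 8 groups were KM12 GNAS knockout and KM12 parental (genotype GNAS R201H, an activating mutation) and LS174T GNAS R201H with Dox (+) and with Dox (-), each as a cell line-derived xenograft (CDX) tumor and as cultured cells. Each group was 1 library, so no test has a spread from repeated cultures or animals. The spread comes instead from pairs or libraries that differ in GNAS genotype, Dox, environment or line. In the tests of knockout and Dox, the pairs compared differ in environment. The labels do not say what Dox switches on, whether the knockout is 1 clone, which mouse strain hosted the tumors, or how many tumors went into a library.

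Ribosomal proteins are assembled with ribosomal RNA in the nucleolus into a large and a small subunit, and most are needed in equal numbers for each ribosome. Their mRNAs are among the most abundant of a growing cell. Many of them begin with a cytosine followed by a run of pyrimidines, the 5′ terminal oligopyrimidine (TOP) motif, through which mTOR and the RNA-binding protein LARP1 control the translation and stability of the mRNA. Several translation factors carry the same motif.

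The start sites below are shown because these genes carry the results that follow: RPL34 and RPL39 were higher in xenografts, RPL26 and RPS26 lower, RPS23 and RPS6 had the most negative difference between the lines in their xenograft effect, RPLP0 was furthest above LS174T in KM12, and RPS27L went against the other members. Each window holds 10 bases before and 20 bases from the transcription start given by RefSeq on GRCh38.p14, 5′ to 3′ on the gene's own strand. Capitals mark the unbroken pyrimidine run that opens with C at the start site; RPS26 and RPS27L have no C there and so no capitals. RefSeq gives RPL34 another start, which begins with T and is not shown.
RPL34 (chr4:108620566-108620595, plus strand): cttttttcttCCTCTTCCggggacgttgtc
RPL39 (chrX:119791611-119791640, minus strand): ccgccagcttCCCTCCTCTTCCTTTCTCCg
RPL26 (chr17:8383174-8383203, minus strand): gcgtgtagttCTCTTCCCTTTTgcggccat
RPS26 (chr12:56041908-56041937, plus strand): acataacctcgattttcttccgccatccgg
RPS23 (chr5:82278335-82278364, minus strand): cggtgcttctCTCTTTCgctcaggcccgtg
RPS6 (chr9:19380217-19380246, minus strand): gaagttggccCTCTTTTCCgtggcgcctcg
RPLP0 (chr12:120201092-120201121, minus strand): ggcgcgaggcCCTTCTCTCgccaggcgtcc
RPS27L (chr15:63157458-63157487, minus strand): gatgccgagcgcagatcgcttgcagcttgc
RefSeq gave a start for 64 of the 81 members. A TOP start, meaning C at the first base and at least 4 further pyrimidines, was found at 46 of those 64 (71.9%), counting a gene if any of its starts qualified, against 1404 of 27305 genes (5.14%) in the whole table of starts. Of the 10 members with more than 1 start, 6, RPL34 among them, had the motif at some starts and not at others.

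Depth was 15924846 to 23124811 counts in the xenografts and 31868711 to 37735085 in the cultures. GNAS itself had 901 CPM in the KM12 knockout xenograft against 1387 CPM in the parental one, and 297 CPM in the knockout culture against 1117 CPM in the parental one. It had 690 CPM in the LS174T Dox (+) xenograft against 584 CPM in the Dox (-) one, and 1742 CPM in the Dox (+) culture against 690 CPM in the Dox (-) one. All 13 colon epithelial markers reached 1 CPM in all 8 libraries. Fibroblast markers summed to 263 CPM in the KM12 parental xenograft, of which COL3A1 gave 220 CPM, and to at most 12.8 CPM in the other 7 libraries. Endothelial markers summed to at most 4.60 CPM with KDR at 0 in all 8 libraries. The 8 leukocyte markers summed to 767 and 245 CPM in the KM12 knockout and parental xenografts against 314 and 268 CPM in the cultures, and to 7.79 and 9.13 CPM in the LS174T Dox (+) and Dox (-) xenografts against 38.2 and 49.1 CPM in the cultures. Most of the KM12 sums was LYZ, the lysozyme gene that Paneth cells of the intestine also express, at 764 and 244 CPM in the knockout and parental xenografts and 311 and 267 CPM in the cultures. Without LYZ the list summed to 1.44 to 8.69 CPM, of which CD14 gave 7.35 CPM in the LS174T Dox (-) xenograft, and the pan-leukocyte gene PTPRC was at 0 in 5 libraries and at most 0.0406 CPM in the others. The part of these markers in the results was not tested. Red blood cell and muscle markers summed to at most 1.49 and 1.58 CPM. In the labels the xenograft libraries carry the mouse as their organism. How mouse reads were kept out of the human counts is not given in the sources used here, and their part in the xenograft values was not tested.

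Together the members took 4.66% to 8.30% of all counts. The share was 6.99% in the KM12 knockout xenograft and 6.79% in the KM12 parental xenograft, against 8.01% and 8.30% in the knockout and parental cultures. LS174T ran the other way, with 8.27% in the Dox (+) xenograft and 6.50% in the Dox (-) xenograft, against 4.71% and 4.66% in the Dox (+) and Dox (-) cultures. The 95% Wilson intervals were at most 0.0125 percentage points to either side and cover counting error only. In CPM scaled by TMM, the scaling factors used throughout, the summed level was 0.715 times that of the culture in the KM12 knockout xenograft and 0.681 times in the parental one. It was 1.48 times that of the culture in the LS174T Dox (+) xenograft and 1.18 times in the Dox (-) one. The xenografts of the lines thus overlapped, at 63196 and 61875 CPM in KM12 (knockout and parental) and 74824 and 61010 CPM in LS174T (Dox (+) and Dox (-)), while the cultures stood apart, at 88364 and 90797 CPM in KM12 and 50403 and 51499 CPM in LS174T, in the same order of states. In bulk RNA, a change in the number of cells of a type and a change in RNA per cell cannot be told apart. Mitochondrial transcripts, a share that lowers all others, took 5.23% to 8.66% of xenograft counts and 7.22% to 11.8% of culture counts; without them the members' share was still lower in both KM12 xenografts (7.60% and 7.44%, against 9.08% and 9.34% in the cultures) and higher in both LS174T xenografts (8.75% and 6.86%, against 5.07% and 5.09%).

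**Figure D1:**
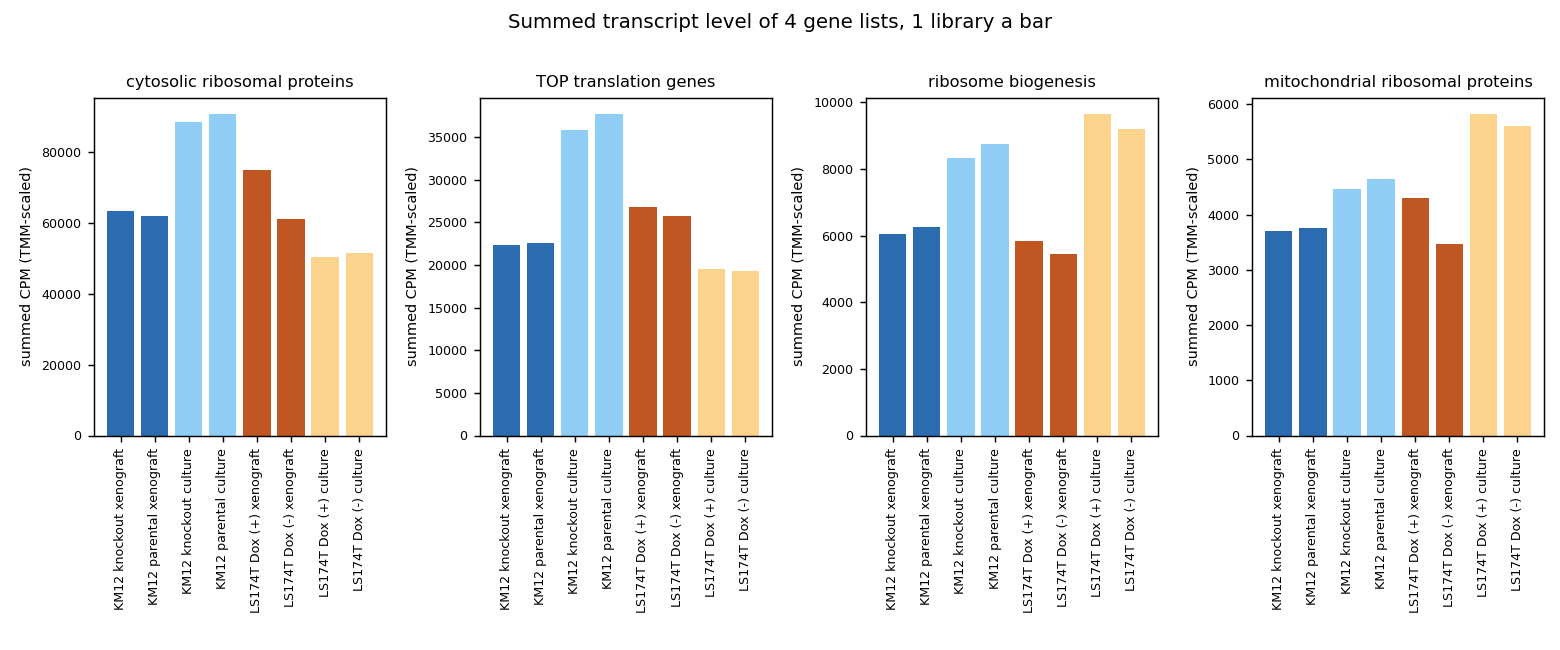
Summed TMM-scaled CPM of 4 gene lists, with 1 bar for each of the 8 libraries (dark blue KM12 xenografts, light blue KM12 cultures, dark orange LS174T xenografts, light orange LS174T cultures). Cytosolic ribosomal proteins and TOP translation genes were lower in KM12 xenografts and higher in LS174T xenografts than in the cultures of the same line, while ribosome biogenesis and mitochondrial ribosomal proteins were lower in the xenografts of both.

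Both subunits took part. Large subunit transcripts summed to 1.56 to 1.71 times the small subunit transcripts in the 8 libraries, 1.62 to 1.71 in the xenografts and 1.56 to 1.61 in the cultures. Per kilobase of the shortest annotated coding transcript and averaged over the 8 libraries, RPLP1, an acidic protein of the ribosomal stalk, had the highest level at 3450 CPM per kb. RPS2 followed at 2993, RPL8 at 2575, RPL13A at 2458 and RPLP0 at 2405 CPM per kb. The lowest tested members were the paralogs RPS27L at 9.19 and RPL39L at 12.9 CPM per kb, then RPL37 at 78.95 and RPL22 at 174 CPM per kb. RPS27L and RPL37 are divided by unusually long annotated transcripts (6434 and 7686 bases), which lowers their place in this order.

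**Figure D2:**
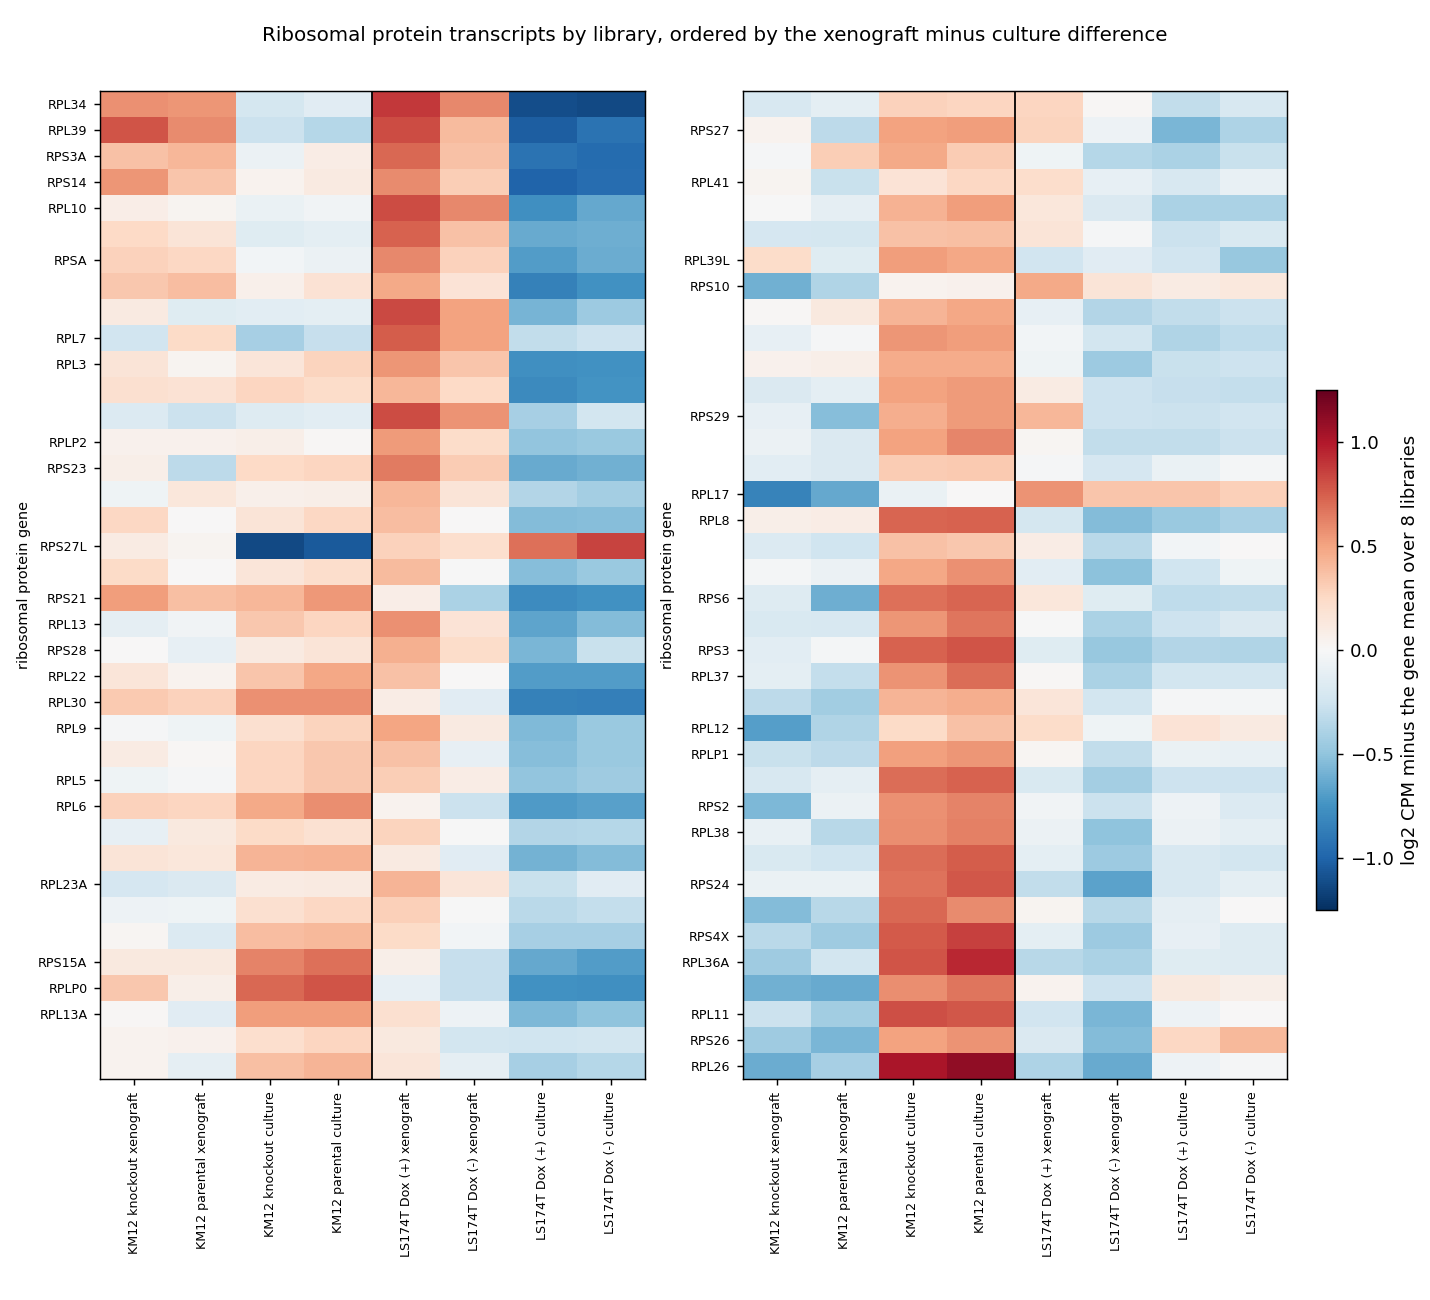
Level of 76 of the tested members, 1 a row, in the 8 libraries, as log2 CPM minus the gene's mean over the libraries (red above, blue below the mean), ordered by the xenograft minus culture difference over both lines; rows of genes named in the text are labelled. The KM12 cultures are mostly red and the LS174T cultures mostly blue, the xenografts of both lines lie nearer to the mean, and RPS27L shows the opposite colors.

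Whether the xenograft difference was the same in both lines was tested as an interaction, the KM12 difference minus the LS174T difference on the log2 scale. Of the 79 tested members, 56 had a more negative difference in KM12 and 1, RPS27L, a more positive one, with edgeR's quasi-likelihood test and Benjamini-Hochberg adjusted p below 0.05. Over all 16070 genes 13.7% were called, 7.74% lower and 5.94% higher. The members' median was -0.86, against 0.00 for all tested genes, and 78 of the 79 lay below 0. The 33 called lower among 47 large subunit members had a subunit median of -0.83, and the 23 called lower among 32 small subunit members one of -0.89.

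RPS23, a protein beside the decoding center of the small subunit, had the most negative interaction. In KM12, RPS23 had 709 and 536 CPM in the knockout and parental xenografts, against 797 and 807 CPM in the cultures of the same states. In LS174T, RPS23 had 1053 and 839.5 CPM in the Dox (+) and Dox (-) xenografts, against 434 and 442 CPM in the cultures. The KM12 xenografts lay below their cultures and the LS174T xenografts well above theirs, and the interaction was -1.48 ± 0.234 (SE; adjusted p = 0.00662). RPS6 is the small subunit protein phosphorylated by S6 kinases downstream of mTOR. In KM12, RPS6 had 1396 and 1026 CPM in the knockout and parental xenografts, against 2513 and 2584 CPM in the cultures of the same states. In LS174T, RPS6 had 1723 and 1405 CPM in the Dox (+) and Dox (-) xenografts, against 1255 and 1265 CPM in the cultures. Both KM12 xenografts were far below both KM12 cultures, and both LS174T xenografts were above both LS174T cultures. The RPS6 interaction was -1.40 ± 0.235 (SE; adjusted p = 0.00851). RPS27, a zinc finger protein of the small subunit, gave an interaction of -1.24 ± 0.251 (SE; adjusted p = 0.017).

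Among large subunit members, RPL3 lies at the peptidyl transferase center. In KM12, RPL3 had 2139 and 1961 CPM in the knockout and parental xenografts, against 2124 and 2319 CPM in the cultures of the same states. In LS174T, RPL3 had 2806 and 2425 CPM in the Dox (+) and Dox (-) xenografts, against 1120.0 and 1127 CPM in the cultures. The KM12 libraries overlapped between the environments, the LS174T xenografts were far above theirs, and the interaction was -1.33 ± 0.204 (SE; adjusted p = 0.00594). RPL10, whose insertion is a late step that allows the subunits to join, had an interaction of -1.29 ± 0.208 (SE; adjusted p = 0.00716). In KM12, RPL10 had 1064 and 1024 CPM in the knockout and parental xenografts, against 946 and 971 CPM in the cultures of the same states. In LS174T, RPL10 had 1769 and 1521 CPM in the Dox (+) and Dox (-) xenografts, against 588 and 643 CPM in the cultures. It was above culture in all 4 xenografts but far more so in LS174T. Of its annotated exon bases, 61.3% are shared with genes on the opposite strand, and the described library preparation does not mark strand. RPL13 and RPL22 gave interactions of -1.35 ± 0.229 (SE; adjusted p = 0.00874) and -1.20 ± 0.22 (SE; adjusted p = 0.0117).

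The stalk proteins RPLP0, RPLP1 and RPLP2, which recruit elongation factors to the large subunit, were all called lower. Their interactions were -1.12 ± 0.206 (SE; adjusted p = 0.0118), -0.78 ± 0.204 (SE; adjusted p = 0.0403) and -0.86 ± 0.206 (SE; adjusted p = 0.031). RPL5, which with RPL11 and 5S RNA forms a particle that can bind MDM2, gave -1.01 ± 0.199 (SE; adjusted p = 0.0156). RPL11 itself missed the threshold at -0.77 ± 0.216 (SE; adjusted p = 0.0501). RPSA, also known as the laminin receptor precursor, gave -0.78 ± 0.21 (SE; adjusted p = 0.0448), and the X-linked RPS4X -1.04 ± 0.205 (SE; adjusted p = 0.0155).

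RPS27L, a paralog of RPS27 known as a p53 target, was the exception. In KM12, RPS27L had 57.4 and 55 CPM in the knockout and parental xenografts, against 24.6 and 25.9 CPM in the cultures of the same states. In LS174T, RPS27L had 65.5 and 62.1 CPM in the Dox (+) and Dox (-) xenografts, against 86.3 and 96.2 CPM in the cultures. The KM12 xenografts were both above the KM12 cultures and the LS174T xenografts both below the LS174T cultures. Its interaction was 1.67 ± 0.213 (SE; adjusted p = 0.00299), and no other member lay above 0.

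**Figure D3:**
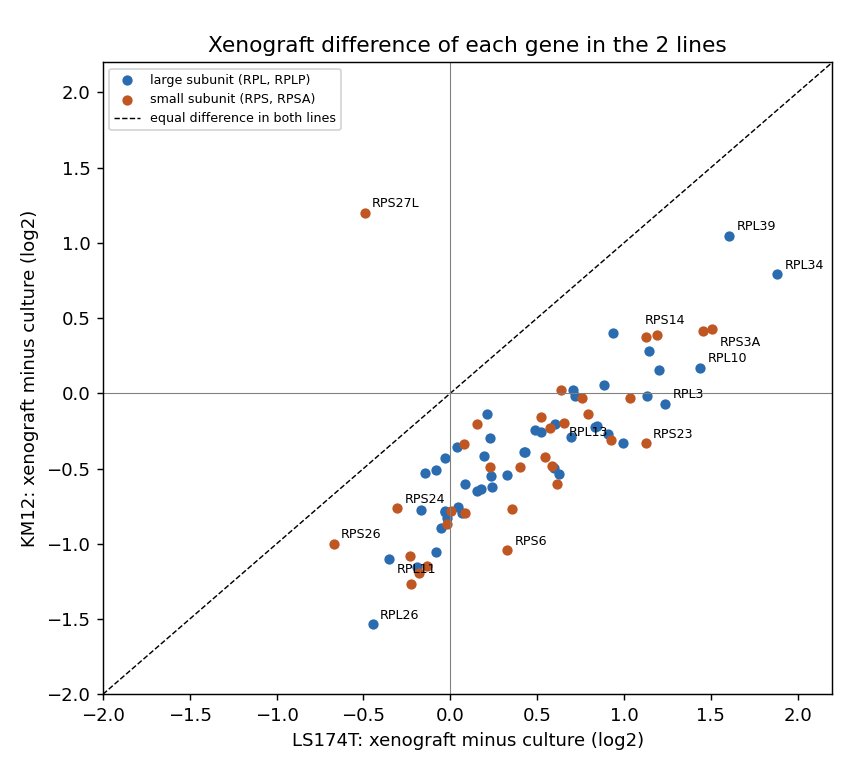
Xenograft minus culture difference (log2) of the 79 tested members in KM12 (vertical axis) against LS174T (horizontal axis), fitted in each line alone; blue points are large subunit and orange points small subunit genes. All members but RPS27L lie below the dashed line of equal differences, and points farther right tend to lie higher.

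Fitted alone, with 2 libraries in each environment, KM12 had 33 members called lower and 3 called higher (RPL34, RPL39 and RPS27L), where 22.3% of 14340 genes were called, 10.9% lower and 11.4% higher. LS174T fitted alone had 39 members called higher and 3 lower (RPL26, RPS26 and RPS27L), where 57.2% of 14677 genes were called, 29.5% higher and 27.8% lower. The members' median was -0.39 in KM12 and 0.40 in LS174T, and each of these fits had 1 residual degree of freedom. Both KM12 xenografts lay below both KM12 cultures in 62 members, against 35.7% of genes, and above them in 10, against 33.3%. Both LS174T xenografts lay above both LS174T cultures in 47 members, against 39.6% of genes, and below them in 8, against 37.6%. By direction alone, 31 of 79 members (39.2%) were below culture in both KM12 pairs and above it in both LS174T pairs, a pattern seen in 8.43% of all tested genes. A further 9 members were above culture in all 4 pairs and 9 below it in all 4, each 11.4%, against 23.9% and 25.1% of all tested genes. RPL13A, RPLP0 and RPS27 passed the test in both lines, lower in KM12 and higher in LS174T, and RPS27L passed in both with the opposite signs.

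The members were ordered alike in both lines. Across the 79 members the KM12 and LS174T differences had a Pearson correlation of 0.737 and a Spearman correlation of 0.801, and Pearson 0.877 over the 78 members without RPS27L. The other 15991 tested genes were not matched to the members in level. Over them Pearson was 0.412, from the mean log2 ratio of the pairs of each line in place of the fits. These are correlations across genes, which share libraries, depth and sequence and are not replicates. The difference over both lines was only weakly related to the number of named pseudogenes of a member (Spearman 0.0939), to transcript length (0.0714) and to mean CPM (-0.155).

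The number called depended on the pairs used. Without the culture and xenograft of LS174T Dox (+), or of Dox (-), 0 members passed edgeR's test, with 48 and 76 at an unadjusted p below 0.05, and over all genes 17 and 33 were called; the medians were -0.68 and -1.03, and 78 of 79 members lay below 0 in each case. Without the KM12 knockout pair the members' median was -0.90, and without the KM12 parental pair, whose xenograft held the COL3A1 counts, -0.85. In each case 1 KM12 library was left in each environment, and 78 of 79 members lay below 0. 

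Over both lines together, the members' median xenograft difference was -0.02. It joins opposite medians, -0.39 in KM12 alone and 0.40 in LS174T alone, where 36 and 42 members were called. The disagreement between the lines is part of the spread of the joint fit. In that fit 2 members were called higher and 2 lower, where 26.1% of genes were called, 12.6% higher and 13.5% lower. RPL39, a small protein lining the exit tunnel, was 1 of the 2 that rose. In KM12, RPL39 had 309.8 and 270.4 CPM in the knockout and parental xenografts, against 149 and 140.4 CPM in the cultures of the same states. In LS174T, RPL39 had 315 and 237 CPM in the Dox (+) and Dox (-) xenografts, against 88 and 94.8 CPM in the cultures. All 4 xenografts were above all 4 cultures, and the difference was 1.29 ± 0.184 (SE; adjusted p = 0.0122). RPL34 was the other. In KM12, RPL34 had 398 and 395 CPM in the knockout and parental xenografts, against 231 and 243 CPM in the cultures of the same states. In LS174T, RPL34 had 495 and 407 CPM in the Dox (+) and Dox (-) xenografts, against 124 and 123 CPM in the cultures. It too had no overlap between xenografts and cultures, with a difference of 1.30 ± 0.267 (SE; adjusted p = 0.0236), although larger in LS174T by the interaction (-1.11 ± 0.203 (SE; adjusted p = 0.0114)). RPS3A and RPS14 came next at 0.93 ± 0.274 (SE; adjusted p = 0.0537) and 0.90 ± 0.267 (SE; adjusted p = 0.0552), neither past the test.

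RPS26, a protein at the mRNA exit channel of the small subunit, fell. In KM12, RPS26 had 374 and 342 CPM in the knockout and parental xenografts, against 724 and 754 CPM in the cultures of the same states. In LS174T, RPS26 had 451 and 349 CPM in the Dox (+) and Dox (-) xenografts, against 610.3 and 677 CPM in the cultures. Each xenograft was below every culture, and the difference was -0.87 ± 0.167 (SE; adjusted p = 0.0202). RPL26, which has been described to bind p53 mRNA, fell as well. In KM12, RPL26 had 279.9 and 322 CPM in the knockout and parental xenografts, against 870.5 and 926 CPM in the cultures of the same states. In LS174T, RPL26 had 329 and 278 CPM in the Dox (+) and Dox (-) xenografts, against 412 and 425 CPM in the cultures. The KM12 xenografts were far below their cultures, the LS174T xenografts were nearer to theirs, and the difference was -1.03 ± 0.269 (SE; adjusted p = 0.0402). RPL11 and RPS24 followed at -0.76 ± 0.221 (SE; adjusted p = 0.0519) and -0.57 ± 0.18 (SE; adjusted p = 0.0636), neither past the test. In 8 members all xenografts were above all cultures, against 12.6% of genes, and in 6 all were below, against 13.8%; these are 10.1% and 7.59% of the 79. The 4 calls depended on the libraries used: without the LS174T Dox (+) or Dox (-) pair 0 members passed edgeR's test (24 and 8 at an unadjusted p below 0.05), without the KM12 knockout pair 2 and without the parental pair 3. Over all genes, in the same order, 11 of 15363, 596 of 15369, 2021 of 15609 and 2613 of 15534 were called. Scaled by library totals alone, the median of all genes moved to 0.28, against 0.02 with TMM, and the members' median to 0.24. With that scaling 8 members were called higher and 1 lower, where 3335 and 990 of 16070 genes were.

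Between the lines, over both environments, 14 of the 79 tested members were higher in KM12 and 2 lower, where 40.2% of genes were called, 19.6% higher and 20.6% lower. The members called higher were near the share of all genes, and those called lower were below it. This fit takes 1 line difference for both environments, while with the cultures alone 72 members were called higher, as given below. The members' median was 0.35. RPLP0, the stalk protein that anchors RPLP1 and RPLP2, had the largest positive difference. Its level was 3428 and 2869 CPM in the KM12 knockout and parental xenografts and 4486 and 4675 CPM in the KM12 cultures, against 2541 and 2230.0 CPM in the LS174T Dox (+) and Dox (-) xenografts and 1607 and 1595 CPM in the LS174T cultures. All 4 KM12 libraries were above all 4 LS174T libraries, and the difference was 0.96 ± 0.239 (SE; adjusted p = 0.0138). RPS21 and RPL30 followed at 0.92 ± 0.176 (SE; adjusted p = 0.00434) and 0.87 ± 0.224 (SE; adjusted p = 0.0158). RPL8, a neighbor of the peptidyl transferase center, and RPL6 gave 0.81 ± 0.18 (SE; adjusted p = 0.00842) and 0.80 ± 0.193 (SE; adjusted p = 0.0119). RPS15A, RPS3 and RPS24 gave 0.77 ± 0.23 (SE; adjusted p = 0.0288), 0.68 ± 0.204 (SE; adjusted p = 0.0298) and 0.64 ± 0.15 (SE; adjusted p = 0.0108). RPL17, a protein near the exit of the peptide tunnel, was lower in KM12 at -0.78 ± 0.179 (SE; adjusted p = 0.00988), and RPS27L at -1.02 ± 0.322 (SE; adjusted p = 0.0363); RPS10 and RPL7 lay below 0 without passing the test, at -0.44 ± 0.172 (SE; adjusted p = 0.0739) and -0.34 ± 0.171 (SE; adjusted p = 0.144).

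The line difference was not the same in cultures and xenografts, which is the interaction above seen from the other side. With the culture libraries alone, 72 members were higher in KM12 and 2 lower, where 68.4% of genes were called, 34.0% higher and 34.4% lower, and the median was 0.78. In 75 of 79 members (94.9%) both KM12 cultures were above both LS174T cultures, against 41.8% of genes. With the xenograft libraries alone, 0 members were higher and 4 lower with edgeR's test (1 and 11 at an unadjusted p below 0.05), where 22.6% of genes were called, 9.55% higher and 13.1% lower, and the median was -0.14. These comparisons use the same libraries as the interaction and are not independent of it. Leaving out single libraries gave 3 to 29 calls: 3 without the LS174T Dox (+) culture, 5 without the LS174T Dox (-) culture, 7 and 8 without the KM12 knockout and parental cultures, 9 without the LS174T Dox (-) xenograft and 29 without the LS174T Dox (+) xenograft. Over all genes, leaving out single libraries gave 4927 to 6287 calls among 15575 to 15988 tested, against 6454 of 16070 with all libraries.

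No member passed the test between knockout and parental or between Dox (+) and Dox (-). In KM12, 0 of 79 members passed edgeR's test between knockout and parental, with 0 at an unadjusted p below 0.05 and 0 by DESeq2 or limma, where 0.0124% of genes were called, 0.00622% higher and 0.00622% lower. The median was 0.00, with 41 members above 0. RPS6 and RPS23 had the smallest p above 0, at 0.20 ± 0.166 (SE; adjusted p = 0.88) and 0.19 ± 0.164 (SE; adjusted p = 0.88), then RPS27 at 0.17 ± 0.177 (SE; adjusted p = 0.902). RPL7 and RPS2 had the smallest p below 0, at -0.30 ± 0.157 (SE; adjusted p = 0.86) and -0.27 ± 0.153 (SE; adjusted p = 0.86), then RPL12 and RPL36A at -0.22 ± 0.142 (SE; adjusted p = 0.86) and -0.18 ± 0.136 (SE; adjusted p = 0.874). RPS6 had 1396 CPM in the knockout xenograft against 1026 CPM in the parental xenograft, and 2513 CPM in the knockout culture against 2584 CPM in the parental culture, so the xenograft pair alone set its direction. RPS2, a small subunit protein near the mRNA entry channel, had 1923 CPM in the knockout xenograft against 2700 CPM in the parental xenograft, and 4229 against 4368 CPM in the knockout and parental cultures.

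In LS174T, 0 of 79 members passed between Dox (+) and Dox (-), with 0 at an unadjusted p below 0.05 and 0 by DESeq2 or limma, where 0.0% of genes were called. Yet 77 members lay above 0, with a median of 0.14, against 0.01 for all tested genes. The xenograft pair set this direction: 78 of 79 members were higher in the Dox (+) than in the Dox (-) xenograft, where 50.5% of genes were, with a median log2 ratio of 0.309 and a range of -0.10 (RPL39L) to 0.68 (RPS29). In culture 23 of 79 were higher in Dox (+), with a median of -0.032 and a range of -0.30 (RPS28) to 0.23 (RPL39L). The shift was not particular to the members. Over both pairs, 77 of 78 mitochondrial ribosomal protein genes lay above 0, with a median of 0.20. Their summed level in the Dox (+) xenograft was 1.24 times that of the Dox (-) one, against 1.23 times for the members. Medians were 0.11 for ribosome biogenesis genes and 0.08 for TOP translation genes. RPS29 had 327 CPM in the Dox (+) xenograft against 204 CPM in the Dox (-) xenograft, and 203 against 208 CPM in the Dox (+) and Dox (-) cultures. Its difference over both pairs was 0.32 ± 0.209 (SE; adjusted p = 0.936), and those of RPL38 and RPS15A were 0.24 ± 0.159 (SE; adjusted p = 0.936) and 0.21 ± 0.145 (SE; adjusted p = 0.936). RPS27L and RPS28 lay below 0 at -0.04 ± 0.148 (SE; adjusted p = 0.982) and -0.04 ± 0.164 (SE; adjusted p = 0.987). With 1 tumor library in each state, the state and the single library cannot be told apart.

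**Figure D4:**
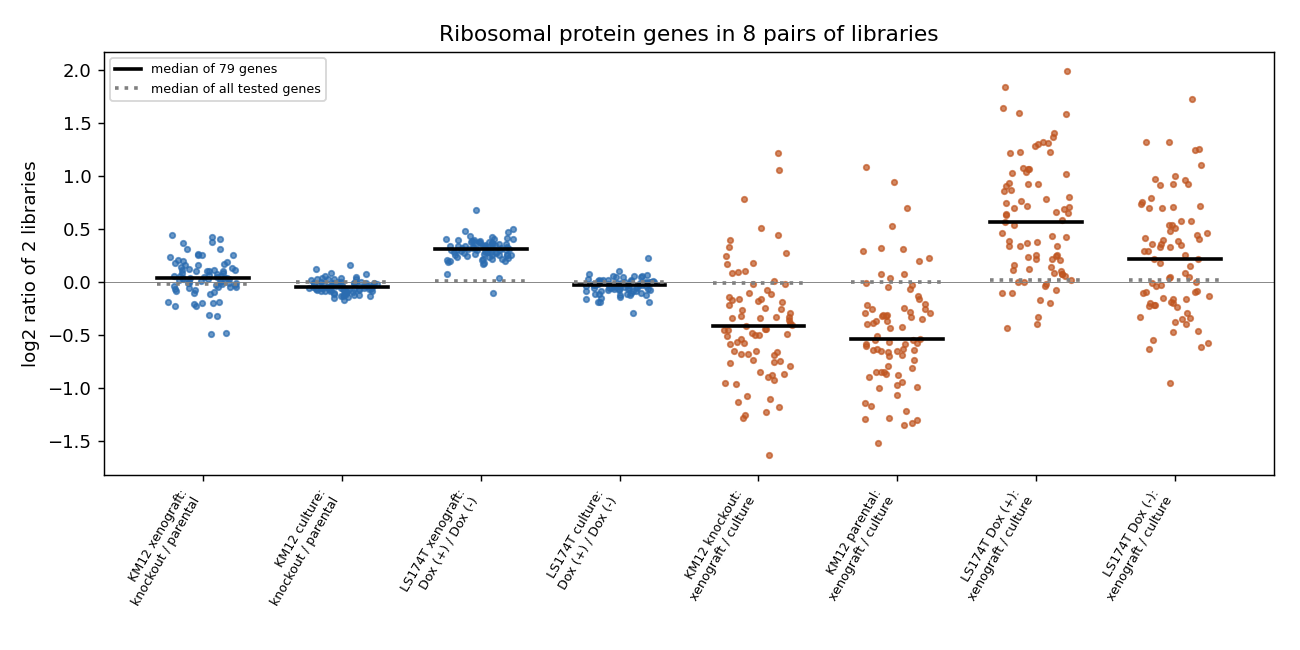
Log2 ratio of each of the 79 tested members in 8 pairs of libraries (points), with the members' median (black bar) and the median of all tested genes (dotted bar); blue pairs differ in GNAS genotype or Dox and orange pairs in environment. The members' medians are near 0 in 3 of the 4 blue pairs and 0.309 in the LS174T xenograft pair, below 0 in both KM12 environment pairs and above 0 in both LS174T environment pairs.

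The 4 pairs were also joined as KM12 parental and LS174T Dox (+) minus KM12 knockout and LS174T Dox (-). The labels give R201H for both LS174T states, so matching Dox (+) with the KM12 parental state is an assumption. In this joint comparison 0 of 79 members passed edgeR's test, where 0.0% of genes were called, with 1 at an unadjusted p below 0.05 and 0 adjusted calls by DESeq2 or limma. The members' median was 0.07, against 0.01 for all tested genes, and 70 members lay above 0. Of 78 mitochondrial ribosomal protein genes 73 lay above 0, with a median of 0.11. RPL12, a stalk base protein, had the smallest p at 0.20 ± 0.0842 (SE; adjusted p = 0.775), then RPS2 at 0.22 ± 0.0954 (SE; adjusted p = 0.775), RPL7 at 0.20 ± 0.104 (SE; adjusted p = 0.775) and RPS3A at 0.15 ± 0.0887 (SE; adjusted p = 0.786). Below 0, the smallest p were those of RPS27 (-0.05 ± 0.123 (SE; adjusted p = 0.934)), RPL39L (-0.07 ± 0.177 (SE; adjusted p = 0.934)), RPS28 (-0.04 ± 0.104 (SE; adjusted p = 0.945)) and RPS6 (-0.03 ± 0.122 (SE; adjusted p = 0.96)). The median was -0.016, with 29 members above 0, once the LS174T xenograft pair was left out.

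The other genes that serve ribosomes did not all follow the members. Of 21 TOP translation genes, 12 (57.1%) had a more negative xenograft difference in KM12 and 0 a more positive one, with a median of -0.87, where 7.74% of all genes were called lower and 5.94% higher. EEF1A1, the elongation factor that delivers aminoacyl-tRNA, had 6539 and 6610 CPM in the KM12 knockout and parental xenografts against 10110 and 10730 CPM in the cultures, and 10370 and 9866 CPM in the LS174T Dox (+) and Dox (-) xenografts against 5315 and 5131 CPM in the cultures. Its interaction was -1.62 ± 0.184 (SE; adjusted p = 0.00191). TPT1, EEF1B2 and EIF4B gave -1.35, -1.29 and -1.21. Of 47 ribosome biogenesis genes 5 (10.6%) were called more positive and 0 more negative, with a median of 0.34. Of 78 mitochondrial ribosomal protein genes 6 (7.69%) were called more positive, near the 5.94% of all genes, and 2 (2.56%) more negative, with a median of 0.24. Of 6 ribosomal paralogs and fusion genes outside the rule, some of which are also among the TOP translation genes, RPL26L1 alone was called, at 1.00 ± 0.27 (SE; adjusted p = 0.0445), opposite in sign to RPL26.

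Over both lines, ribosome biogenesis genes fell in xenografts in 26 of 47 cases (55.3%) and rose in 2 (4.26%), with a median of -0.52, where 13.5% of all genes fell and 12.6% rose. RRS1 and RRP9, factors of large subunit assembly and pre-rRNA processing, gave -1.23 and -1.22, and EBNA1BP2 and the RNA helicase DDX21 gave -1.19 and -1.10. Mitochondrial ribosomal protein genes fell in 32 of 78 cases (41.0%) and rose in 1, with a median of -0.43; MRPL36, MRPL34, MRPS34 and MRPL24 gave -1.36, -1.28, -1.08 and -1.0. Among the 21 TOP translation genes 3 rose (14.3%, near the 12.6% of all genes) and 0 fell: EEF1D at 0.84, NACA at 0.55 and EEF1G at 2.01, the last counted at no more than 1.43 CPM in any library. Of the paralogs outside the rule, RPL36AL and RPL7L1 fell, at -1.10 and -0.46. Of 19 regulators of TOP mRNAs and mTOR signaling 10 fell (52.6%) and 0 rose. By the interaction, 3 of the 19 (15.8%) had a more positive xenograft difference in KM12 and 5 (26.3%) a more negative one. The list's interaction median was 0.19, where 5.94% of all genes were called more positive and 7.74% more negative. MYC, the transcription factor that drives ribosome biogenesis genes, had 68.3 and 124 CPM in the KM12 knockout and parental xenografts against 391 and 427 CPM in the cultures, and 335 and 245 CPM in the LS174T Dox (+) and Dox (-) xenografts against 485 and 458 CPM in the cultures. It was below culture in all 4 pairs, at -1.43 ± 0.353 (SE; adjusted p = 0.0354), and by the interaction more so in KM12, at -1.43 ± 0.283 (SE; adjusted p = 0.0171). DDIT4, an inhibitor of mTOR complex 1, had the largest interaction of that list at -4.32 ± 0.356 (SE; adjusted p = 0.0015); it had 351 and 383 CPM in the KM12 knockout and parental xenografts against 289 and 342 CPM in the cultures, and 853 and 1849 CPM in the LS174T Dox (+) and Dox (-) xenografts against 52.5 and 55.3 CPM in the cultures.

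Members with and without the motif at the start site had nearly the same interaction median. The 46 tested members with a TOP start had medians of -0.35 in KM12 and 0.53 in LS174T and an interaction median of -0.85, with 32 called lower. The 17 matched members without one had -0.39, 0.15 and -0.84, with 11 called lower, where 7.74% of all tested genes were. TOP starts were found at 13 of 14 matched TOP translation genes (92.9%), 6 of 40 ribosome biogenesis genes (15.0%) and 6 of 69 mitochondrial ribosomal protein genes (8.7%). The match is a description of RefSeq's starts, which need not be those used in these cells.

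Ribosomal proteins have many processed pseudogenes, and reads can be placed on the gene or on a copy. The annotation names 1132 such pseudogenes for 76 of the members, of which 410 had no count, and together they held 0.736% to 1.51% as many counts as the members. In 49 members the pseudogenes took under 1% of the joint counts in all libraries, and in 6 they took over 5% in some library. RPL41, the shortest ribosomal protein, stood out by environment. Its pseudogenes took 15.7% and 19.6% of the joint counts in the KM12 knockout and parental xenografts against 0.849% and 0.833% in the cultures, and 13.2% and 18.2% in the LS174T Dox (+) and Dox (-) xenografts against 0.803% and 0.573%. The counts lay on RPL41P1, a processed pseudogene at chr20:21755270-21755350 (GRCh38, plus strand), with 97.0 and 103 CPM in the KM12 xenografts against 2.63 and 2.78 CPM in the cultures, and 88.4 and 106 CPM in the LS174T xenografts against 1.72 and 0.674 CPM. RPS28 went the other way, with 0.864% and 0.715% in the KM12 xenografts against 4.50% and 4.64% in the cultures, and 1.10% and 1.04% in the LS174T xenografts against 8.38% and 7.03%.

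Other copies went with the line. RPL13 pseudogenes took 9.01% and 8.42% in the KM12 xenografts and 6.04% and 6.07% in the KM12 cultures, but at most 0.922% in LS174T. RPL9 pseudogenes took 3.75% to 7.12% in KM12 and at most 0.809% in LS174T. RPS2 pseudogenes took 3.29% to 7.32% in KM12 and 9.04% to 16.6% in LS174T. RPL23A pseudogenes took 13.0% and 11.3% in the KM12 xenografts and 4.48% to 6.12% in the other 6 libraries. Among the members with named pseudogenes, the pseudogene share of all 4 xenografts was above that of all 4 cultures in 38, and below in 3. These counts have no share over other genes to be set against. Whether pseudogenes of other genes shifted likewise was not tested. Adding the pseudogene counts to their members left the number called at 57 for the interaction, 4 for the environment and 16 for the line.

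**Figure D5:**
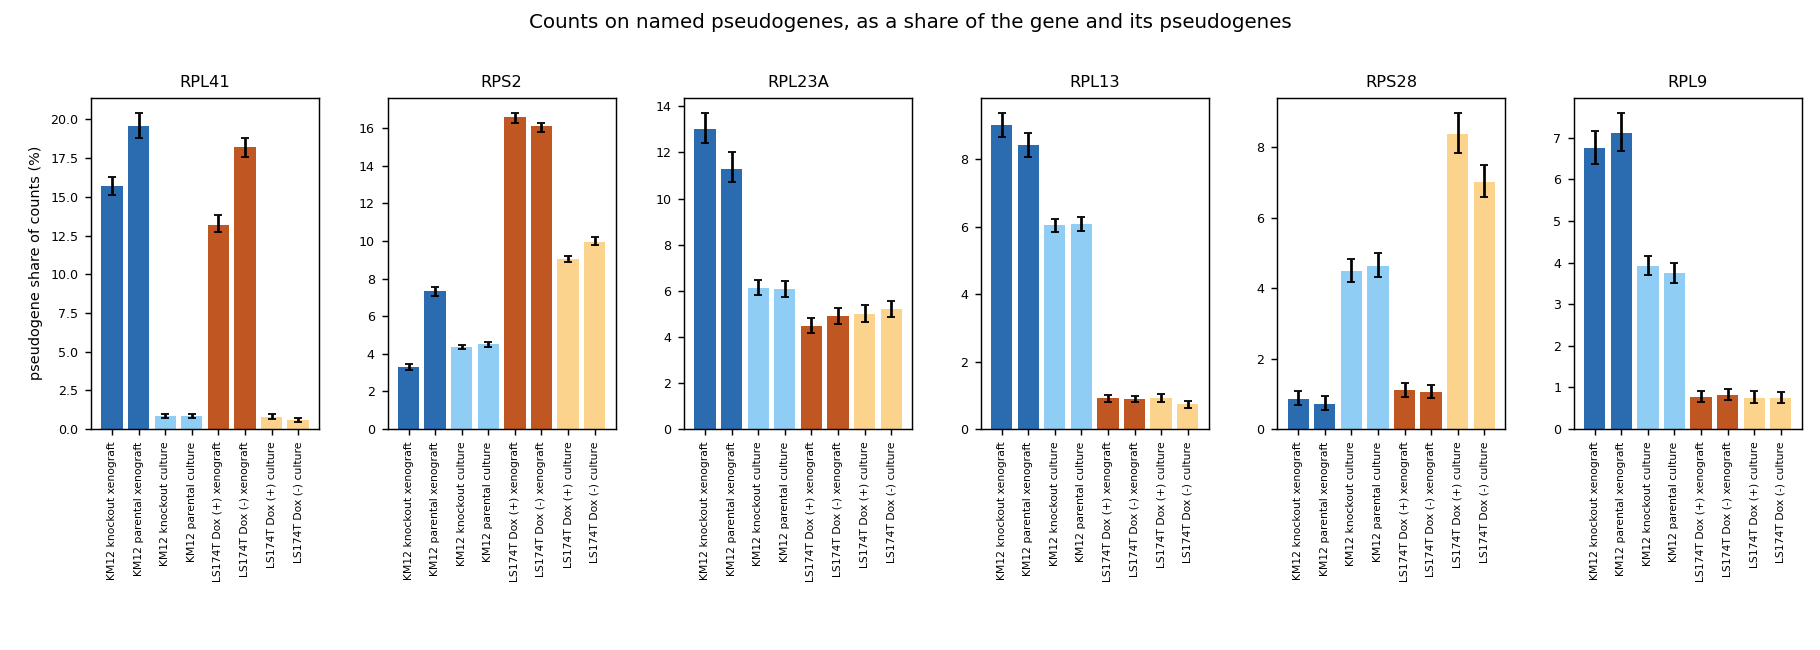
Share of counts (percent) on named pseudogenes among the counts of a gene and its pseudogenes, for the 6 members above 5% in some library, with 1 bar a library and 95% Wilson intervals that cover counting error only; vertical axes differ between panels. RPL41 copies hold 13.2% to 19.6% in xenografts and under 1% in cultures, RPS28 the reverse, and RPL13 and RPL9 copies are high in KM12.

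Overlapping annotation limits a few members further. Another gene covers more than 50% of the exon bases of 3 members, RPL10, RPL17 and RPS10. RPL17 shares 53.4% with the readthrough gene RPL17-C18orf32 and other genes of its strand, and RPS10 shares 55.6% with RPS10-NUDT3, and their counts are low for ribosomal proteins, at 64.8 to 170 CPM and 113 to 238 CPM. The exons of 52 members overlap no other gene. Of the paralogs, RPL39L, best known from testis, had 9.59 and 7.38 CPM in the KM12 knockout and parental xenografts against 11.8 and 11.5 CPM in the cultures, and 6.92 and 7.43 CPM in the LS174T Dox (+) and Dox (-) xenografts against 6.91 and 5.88 CPM. It passed none of the 6 tests. RPL3L, a striated muscle paralog, had 0 to 24 counts a library. RPL10L, a testis retrogene, had 2 counts in the LS174T Dox (-) xenograft and 0 in the other 7 libraries, where 3 counts, the limit that a count of 0 allows, would be 0.0877 to 0.172 CPM.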

How the data were processed

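Raw counts of reads for each human gene were deposited for 8 libraries, 1 for each group. Per the submitters' processing notes, the authors used the aligner STAR 2.7.2b and the counter HTSeq 0.11.0, with hg38 and GRCm39 as builds. The annotation release, the strand setting, the treatment of reads with several matches and the handling of mouse reads are not given in the sources used here. Per the labels' protocols, mRNA was enriched on oligo(dT) beads before random-primed cDNA synthesis. Nothing in that description marks strand, so overlapping genes and close copies are uncertain. Groups came from the sample titles.

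Gene names and coordinates came from GENCODE release 29 (GRCh38) by gene ID, which named 56753 of 60483 genes holding 99.96% of counts. Start sequences came from RefSeq on GRCh38.p14. The filter (1 CPM or more in no fewer than 2 libraries) left 16070 genes, which were tested with edgeR 4.0.16 in R 4.3.3 (TMM scaling, quasi-likelihood F test, robust dispersion, Benjamini-Hochberg over all tested genes, threshold 0.05). The SE is |log2 difference|/√F and rests on dispersion estimates moderated over all genes. The environment effect was blocked by the 4 combinations of line and GNAS or Dox state (3 residual degrees of freedom), and its difference between lines had 2. The pairing comes from the labels, since both libraries of a pair carry the same line and GNAS or Dox state. The line effect had environment as a covariate (5). The GNAS effects were blocked by the combinations of line and environment, with 1 coefficient a line (2) or 1 over the 4 pairs (3). Ratios of single pairs used a prior count of 2. Fits were tested on simulated data.

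DESeq2 1.42.0, limma 3.58.1, other scalings, no filter, no block and leaving out libraries were the alternatives. Fits in 1 line or 1 environment alone, those without single libraries or a culture and xenograft pair, and those with pseudogene counts added were chosen after seeing the data. The members and the comparison lists were chosen with earlier results of these data known. Members named in full were, for each comparison, up to 8 a direction with the largest difference past the test, or the 4 with the smallest p where fewer than 3 passed; the 6 highest and 6 lowest per kilobase; the paralogs; and RPS4X, RPL10, RPL22, RPS6, RPL5, RPL11, RPSA and the stalk proteins. RPL41, RPS28 and other members with high pseudogene shares were named after their values were seen. Single results of a few genes that this rule names are not reported here; counts and medians include them.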

Additional observations from a re-analysis of the deposited data

Results flagged for a closer look

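The xenograft difference of 57 members differed between KM12 and LS174T by the interaction term of edgeR's quasi-likelihood fit. Among those named, RPS27L was more positive in KM12, by 1.67 on the log2 scale. RPS23 (-1.48), RPS6 (-1.40), RPL13 (-1.35), RPL3 (-1.33), RPL10 (-1.29), RPS27 (-1.24) and RPL22 (-1.20) were more negative in KM12.

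Pseudogenes of RPL41, which are outside the 81 genes, took at least 13.2% of the joint counts in every xenograft and at most 0.849% in every culture. The part of this in the RPL41 values was not tested beyond the fit with pseudogene counts added.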

How the results depend on the processing

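The interaction gave 52 to 66 calls under the other tools, scalings, filters and pseudogene counts. Over all genes these settings called 2198 to 2702 of 16070, and 3428 of 37544 without the filter. Without the KM12 knockout or parental pair the members' median was -0.90 or -0.85, and without the LS174T Dox (-) or Dox (+) pair -1.025 or -0.68. These fits left 1 library of that line in each environment and 1 residual degree of freedom. Fits without a pair of 1 line and environment could not be made. For the environment effect, where 4 members were called, DESeq2 called 18, limma 11, library totals alone 9 and no filter 13. Over all genes those settings called 6253, 5190 and 4325 of 16070, and 4793 of 37544, against 4189 of 16070 in the main fit. Without the replicate block of the pairs 19 were called, 9 higher and 10 lower, where 6215 of 16070 genes were called. KM12 alone gave 36 and LS174T alone 42. Without the KM12 culture, KM12 xenograft, LS174T culture or LS174T xenograft pair the counts were 40, 42, 33 and 32 (37 and 39 higher in the first and second case, 30 and 29 lower in the others), and without the Dox (-), Dox (+) or knockout culture and xenograft 0, 0 and 2. Over all genes, in the same order, 8710 of 15887, 8597 of 15375, 2718 of 15777 and 2747 of 15267 were called. For the Dox (-), Dox (+) and knockout cases it was 596 of 15369, 11 of 15363 and 2021 of 15609. For the line effect, where 16 were called, 14 higher and 2 lower, no filter gave 30, cultures alone 74 and xenografts alone 4; without the KM12 culture, KM12 xenograft, LS174T culture or LS174T xenograft pair the counts were 10, 72, 10 and 73: without a culture pair 0 were higher and 10 lower, so the direction turned, and without a xenograft pair 70 and 71 were higher; without single libraries there were 3 to 29 (7 and 8 without the KM12 knockout and parental cultures, 5 and 3 without the Dox (-) and Dox (+) cultures, 9 and 29 without the Dox (-) and Dox (+) xenografts). Over all genes, no filter gave 8430 of 37544 line calls. Without a pair, in the order above, they were 4921 of 15887, 8471 of 15375, 5029 of 15777 and 7561 of 15267. An environment fit without the culture or xenograft pair of 1 line rests on the other line alone. A line fit without a culture pair rests on the xenografts alone, and without a xenograft pair on the cultures alone. These fits are not independent of the interaction. The cause of the other shifts was not tested.

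Differences between GNAS or Dox states, which passed no test, changed sign as follows. Without the KM12 xenograft pair, the knockout difference was -0.04 for RPS6, -0.02 for RPS23 and -0.02 for RPS27, and the 4-pair GNAS difference was 0.06 for RPS27, 0.03 for RPL39L and 0.10 for RPS6. Without the LS174T culture pair, the 4-pair difference was 0.05 for RPS28 and the Dox difference 0.07 for RPS27L and 0.21 for RPS28. With library totals alone, the Dox differences of RPS27L and RPS28 were 0.01 and 0.01. Without the LS174T xenograft pair, that of RPS29 was -0.04. Depth gave at least 1081623 member counts a library, so counting error is small; the spread between cultures or animals of 1 group was not measured.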
